A study of Mus musculus with 12 samples.

Results

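Hepcidin and the genes that sense, carry and store iron were followed in mouse liver as a set of 10 genes named by symbol. The set is Hamp and Hamp2, the BMP ligand gene Bmp6 and the BMP target genes Id1 and Smad7, the transferrin receptor genes Tfr2 and Tfrc, the iron exporter gene Slc40a1 and the ferritin genes Fth1 and Ftl1. All 10 were found among the 54838 gene identifiers of the deposited table, and all 10 passed the low-count filter that left 13861 genes for testing.

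The 12 libraries came from livers of C57BL/6J mice housed specific pathogen free with food at will, and oxygen was crossed with dexamethasone (DEX), a synthetic agonist of the glucocorticoid receptor. Normoxia_PBS mice were kept at 21% O2 and injected with PBS, and Normoxia_DEX mice were kept at 21% O2 and injected intraperitoneally with DEX at 10 mg/kg. Hypoxia_PBS and Hypoxia_DEX mice spent 24 h at 7% O2 before the same injections and went back to 7% O2. Each group held 3 libraries, numbered as replicates, and all livers were taken 2 h after injection, so the DEX comparisons show an early response. The RNA is from whole liver, in which fewer cells of a type and less RNA per cell cannot be told apart. Pooling of animals and sex are not given in the labels.

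Hepcidin is the peptide hormone by which the hepatocyte limits iron entry into plasma: it binds ferroportin, the exporter encoded by Slc40a1, and causes its removal from the cell surface. Its gene is switched on by BMP signalling through SMAD proteins, with BMP6 from endothelial cells as a main ligand, and by interleukin 6 through STAT3, while erythropoietic demand switches it off. Inside cells, iron regulatory proteins bind stem-loops called iron-responsive elements. They block translation of ferritin and ferroportin mRNA and stabilise transferrin receptor mRNA when iron is low.

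Depth ranged from 12464687 to 24715995 counts per library, which limits mainly Id1, Smad7 and Bmp6, the members with the fewest reads (24 to 378 counts per library). Summed levels of 6 hepatocyte markers were 114300 to 150010 CPM (read counts of a gene scaled to library size, with TMM factors), so hepatocyte markers were abundant in every library. The sums also differed between groups, at 114300 to 123360 CPM in Normoxia_PBS and 137570 to 150010 in Normoxia_DEX. They were 119120 to 139110 CPM in Hypoxia_PBS and 129060 to 134650 in Hypoxia_DEX. After DEX 2 of the 6 were higher in normoxia and 1 in hypoxia, and none lower. In hypoxia 2 were lower under PBS and 2 under DEX, and none higher. The X-linked gene Xist stood at 517 to 962 CPM, and 4 Y-linked genes had 0 summed counts in every library, as in female tissue. Hypoxia_DEX-1 and Hypoxia_DEX-3 were the closest pair within a group, with a chi-square of 1.79 per gene where all other such pairs had 10.54 to 38.45. This was still more than sampling noise, and both were kept. Hypoxia_DEX-2 and Hypoxia_PBS-1 stood apart from their groups on the second principal component, at 9.22 against 21.39 and 21.52, and at -6.36 against -25.48 and -22.24. Kupffer cell and endothelial markers moved with oxygen. The summed level of 12 Kupffer cell markers was 539 to 875 CPM in the normoxia libraries and 231 to 288 CPM in the hypoxia libraries. The summed level of 12 liver endothelial markers was 583 to 667 CPM in normoxia and 484 to 503 CPM in hypoxia. The corresponding ranges overlapped for 3 other lists: they were 283 to 395 and 246 to 308 CPM for 8 stellate cell and fibroblast markers, 9.78 to 50.5 and 17.9 to 91.5 CPM for 6 neutrophil markers, and 3.67 to 9.43 and 2.97 to 4.70 CPM for 9 lymphocyte markers. Single genes of these lists still passed. In hypoxia 5 of the 8 stellate cell and fibroblast markers were lower under PBS and 6 under DEX (medians -0.69 and -0.96). For lymphocytes 3 of 7 tested markers were lower under PBS and none passed under DEX (medians -1.23 and -0.01). For neutrophils none of 5 tested passed under PBS and 1 was higher under DEX (medians 0.24 and 1.07). The summed neutrophil markers were at 9.78 to 16.4 CPM in Normoxia_DEX against 30.4 to 50.5 in Normoxia_PBS, and at 17.9 to 41.9 CPM in Hypoxia_DEX against 24.9 to 91.5 in Hypoxia_PBS, and 2 of the 5 tested fell after DEX at each oxygen level (medians -1.97 in normoxia and -1.12 in hypoxia).

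In hypoxia under PBS, Hamp2 and Id1 were lower and Tfrc, Tfr2 and Fth1 were higher, so 5 of the 10 genes passed edgeR's quasi-likelihood test at an adjusted p under 0.05 (Benjamini-Hochberg over all tested genes). Of all tested genes 35.7% passed in that comparison (18.9% higher and 16.8% lower), and the median log2 fold change was 0.19 over the 10 genes and 0.007 over all. In hypoxia under DEX, Hamp, Bmp6 and Fth1 were higher and Hamp2 and Smad7 lower, again 5 of 10, against 42.9% of all genes (20.7% higher and 22.2% lower), with medians of 0.01 and -0.021. In normoxia DEX raised Tfrc alone, 1 of 10 against 16.8% of all genes, 9.38% higher and 7.4% lower (medians 0.05 and 0.002). In hypoxia DEX lowered Smad7 alone, 1 of 10 against 13.2% of all genes, 6.13% higher and 7.05% lower (medians 0.09 and -0.015). With 10 genes, none of these shares is read as particular to the set, and the oxygen comparisons have the larger numbers both among the 10 genes and among all genes. The difference between the DEX responses at the 2 oxygen levels, the interaction, passed for 0 of 10 genes by edgeR, against 1.32% of all genes, 0.325% higher and 0.996% lower (medians 0.0 and -0.022). At an unadjusted p under 0.05 it passed for 2, Tfrc and Id1, and DESeq2 called 1, Tfrc. The hypoxia comparison in PBS mice and the DEX comparison in normoxia share the Normoxia_PBS libraries, and the other comparisons share groups in the same way, so a library that stands apart enters more than 1 of them.

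**Figure D1:**
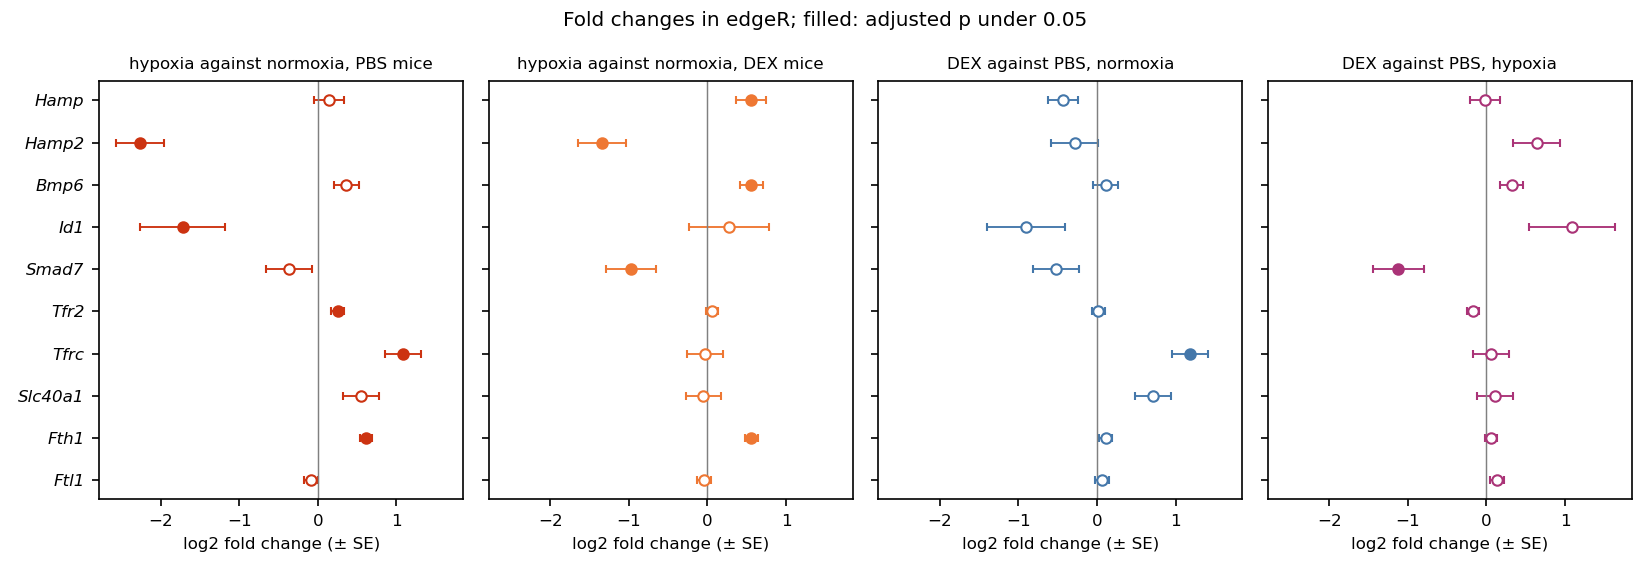
Log2 fold change (x axis, ± SE of the edgeR fit) of the 10 genes (y axis) in 4 comparisons of 3 against 3 libraries; filled points have an adjusted p under 0.05. Hamp2 lies at -2.26 and -1.34 in the oxygen comparisons, while Hamp lies at 0.14 and 0.56, and Tfrc lies above 1 for hypoxia in PBS mice and for DEX in normoxia.

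Hamp encodes hepcidin, and Hamp2 is a neighbouring copy on the same strand whose peptide is not known to lower plasma iron in the mouse. Hamp (ENSMUSG00000050440) lies on chromosome 7 from 30942368 to 30944032 and Hamp2 (ENSMUSG00000056978) from 30922372 to 30924681, both on the minus strand of the mm10 build. Their proximal promoters are shown because Hamp2 was lower in hypoxia under PBS while the change of Hamp did not pass there. In DEX mice Hamp2 was lower and Hamp higher in hypoxia. These are the 150 bases before each RefSeq start (GRCm38.p6), at chr7:30944030-30944179 for Hamp and chr7:30924182-30924331 for Hamp2, 5′ to 3′ on the minus strand. The gene span of Hamp2 given above begins upstream of its RefSeq start, so the whole Hamp2 stretch lies inside that span. For Hamp the span and the RefSeq start nearly coincide. Capitals mark the BMP response element core or the letters aligned with it, and then the STAT element.
Hamp: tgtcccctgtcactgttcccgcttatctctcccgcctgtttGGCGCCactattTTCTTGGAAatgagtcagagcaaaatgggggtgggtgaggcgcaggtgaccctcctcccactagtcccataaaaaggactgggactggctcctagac
Hamp2: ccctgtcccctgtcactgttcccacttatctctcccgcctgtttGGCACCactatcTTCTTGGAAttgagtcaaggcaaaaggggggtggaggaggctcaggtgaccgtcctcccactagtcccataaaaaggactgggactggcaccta
The stretches had 135 identical bases among 147 aligned positions (91.8%), with 12 substitutions. Of these, 1 substitution, G45A counted from the 5′ end of the Hamp stretch, falls inside the BMP element, which spans -109 to -104 relative to the Hamp start. The STAT element begins at -97 in Hamp and at -94 in Hamp2. Over the 250 bases before each start, searched on both strands, GGCGCC occurred in 9.59% of 32851 RefSeq promoters and TTCNNNGAA in 7.02%. Hamp held both motifs and Hamp2 the second alone. Neither held the hypoxia response element core ACGTG (16.6% of promoters) nor the full palindromic glucocorticoid response element (0.00913% of promoters), which says only that these letters are not in these windows.

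Hamp mRNA was among the most abundant of the set. Per kilobase of its reference transcript it had a median of 2164 CPM over the 12 libraries, ahead of Fth1 at 1416, Ftl1 at 1062 and Hamp2 at 652. These were followed by Tfr2 at 128, Slc40a1 at 38.7, Tfrc at 13.5, Id1 at 7.82, and Bmp6 and Smad7 at 1.86 and 1.83 CPM per kilobase. The per-library ranges of neighbours in this order overlapped, except that the lowest Hamp2 library (265) lay above the highest Tfr2 library (154), the lowest Tfr2 library (118) above the highest Slc40a1 library (51.8), and the lowest Slc40a1 library (19.95) above the highest Tfrc library (19.4).

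**Figure D2:**
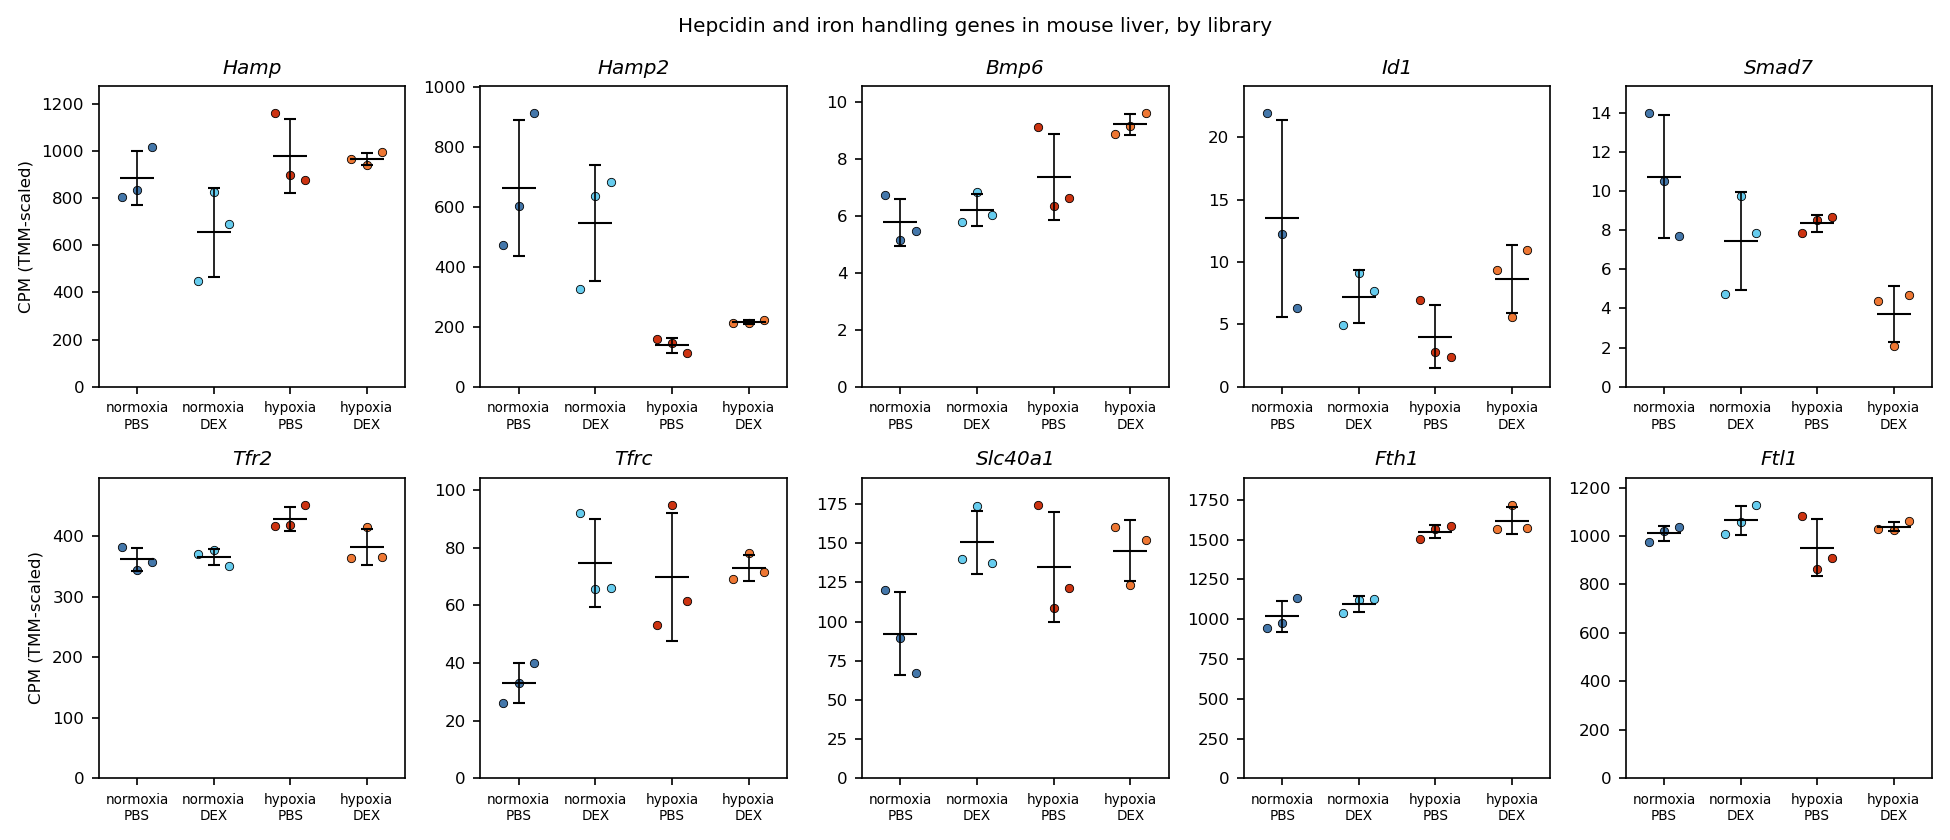
Level of each of the 10 genes (y axes, CPM after TMM scaling, from 0) in the 4 groups; each point is a library, and bars show mean ± SD over n = 3. The hypoxia libraries lie below all normoxia libraries for Hamp2 (111 to 222 against 326 to 912 CPM) and above them for Fth1 (1502 to 1718 against 944 to 1130 CPM).

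In Normoxia_PBS, Hamp stood at 806, 835 and 1016 CPM, and in Hypoxia_PBS at 1159, 899 and 875 CPM. These groups overlapped, and hypoxia under PBS gave a log2 fold change of 0.14 (SE 0.19, edgeR adjusted p = 0.586). In the Normoxia_DEX libraries Hamp stood at 450.0, 824 and 692 CPM, and in the Hypoxia_DEX libraries at 964, 939 and 993 CPM. All Hypoxia_DEX libraries were above all Normoxia_DEX libraries, and Hamp was higher in hypoxia under DEX with a log2 fold change of 0.56 (SE 0.19, edgeR adjusted p = 0.0318). The call was close to the threshold. It was lost without Normoxia_DEX-1, Hypoxia_DEX-1 or Hypoxia_DEX-3, with the latter pair summed, without the count filter and in a fit of the compared groups alone. Adjusted p ran from 0.00652 to 0.106 over all alternatives. The log2 fold change was 0.35 without Normoxia_DEX-1 and 0.56 to 0.58 in the other settings that lost the call. DEX in normoxia gave Hamp a log2 fold change of -0.43 (SE 0.19, edgeR adjusted p = 0.148), which passed only without Normoxia_DEX-2 (adjusted p = 0.038, and 0.038 to 0.365 over all alternatives). DEX in hypoxia gave -0.02 (SE 0.19, edgeR adjusted p = 0.965).

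Hamp2 was lower in hypoxia in both PBS and DEX mice. It stood at 472, 604 and 912 CPM in Normoxia_PBS and at 326, 635 and 682 CPM in Normoxia_DEX, but at 159, 146 and 111 CPM in Hypoxia_PBS and at 213, 212 and 222 CPM in Hypoxia_DEX. Every hypoxia library lay below every normoxia library. Hamp2 fell by 2.26 on the log2 scale in hypoxia under PBS, 4.77-fold lower (SE 0.31, edgeR adjusted p = 0.000501), and fell by 1.34 under DEX, 2.54-fold lower (SE 0.30, edgeR adjusted p = 0.00572). Both calls held under each of the 19 alternatives that were run. DEX in hypoxia gave Hamp2 a log2 fold change of 0.64 (SE 0.30, edgeR adjusted p = 0.212), with the Hypoxia_DEX libraries all above the Hypoxia_PBS libraries. It passed in a fit of the compared groups alone (adjusted p = 0.0195, and 0.0195 to 0.452 over all alternatives). DEX in normoxia gave -0.28 (SE 0.30, edgeR adjusted p = 0.614).

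A ratio within each library does not depend on the scaling between libraries. Hamp2 made up 42.1% ± 5.20 of the combined Hamp and Hamp2 counts in Normoxia_PBS and 45.0% ± 4.05 in Normoxia_DEX (SD, n = 3). In hypoxia the share was 12.4% ± 1.40 under PBS and 18.2% ± 0.15 under DEX. The share was 28.2 percentage points lower in hypoxia, and all 6 hypoxia libraries lay below all 6 normoxia libraries. The two-sided exact permutation test within PBS and DEX mice gave p = 0.005, the smallest that its 400 arrangements allow (adjusted p = 0.01 over 4 tests). The share is formed from the same counts as the Hamp2 fall above and is no separate support for it. The DEX difference was 4.39 points (exact permutation p = 0.04, adjusted p = 0.0533). It passed without Normoxia_PBS-3, where it was 5.70 points (adjusted p = 0.02, and 0.02 to 0.207 over all alternatives). The genes shared 16.6% of the 50-base stretches in Hamp transcripts and 19.5% in Hamp2 transcripts with another gene, mostly with each other, so some reads may have been split between them. The lincRNA gene Gm44662 overlaps both on the opposite strand, at 0.0585 to 0.933 CPM.

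**Figure D3:**
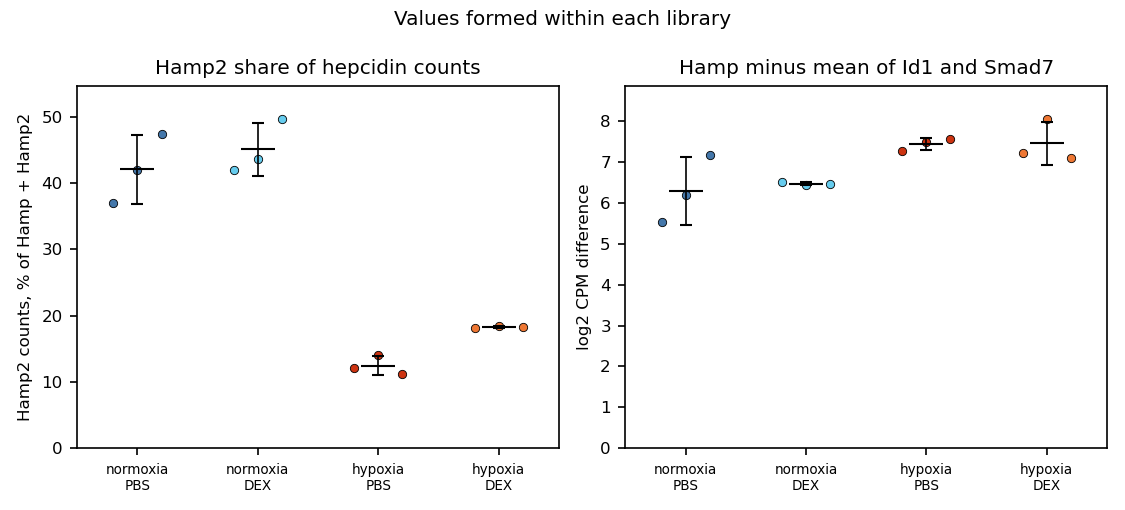
Left, Hamp2 counts as a percentage of Hamp plus Hamp2 counts (y axis) by group; right, log2 CPM of Hamp minus the mean log2 CPM of Id1 and Smad7 (y axis). Points are libraries and bars are mean ± SD over n = 3; the Hamp2 share is 36.9% to 49.6% in normoxia and 11.3% to 18.4% in hypoxia.

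BMP6 is the ligand through which liver endothelial cells report iron stores to hepatocytes. Bmp6 (ENSMUSG00000039004, chromosome 13, 38345107 to 38500302) stood at 6.72, 5.15 and 5.47 CPM in Normoxia_PBS and 5.78, 6.84 and 6.03 CPM in Normoxia_DEX. It stood at 9.12, 6.35 and 6.65 CPM in Hypoxia_PBS and 8.88, 9.17 and 9.61 CPM in Hypoxia_DEX. The DEX groups did not overlap between oxygen levels, and Bmp6 was 1.48-fold higher in hypoxia under DEX (log2 fold change 0.56, SE 0.15, edgeR adjusted p = 0.00902), a call that held under all 19 alternatives. Under PBS the groups overlapped and the change of 0.36 did not pass (SE 0.16, edgeR adjusted p = 0.0906). DEX in hypoxia gave 0.32 (edgeR adjusted p = 0.203) and passed without Hypoxia_PBS-1, the highest library of its group (0.53, adjusted p = 0.0234, and 0.0234 to 0.453 over all alternatives). The endothelial markers moved the other way with oxygen: 8 of 12 were lower and 1 higher in hypoxia under PBS, and 6 were lower under DEX, with summed levels as given above. Their part in the Bmp6 result was not tested. Bmp6 shares 4.55% of its 50-base stretches with Txndc5, which overlaps its end on the opposite strand at 123 to 187 CPM, and the strand setting of the counting is not given in the sources used here.

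Id1 and Smad7 are direct BMP targets in hepatocytes: Id1 encodes an inhibitor of helix-loop-helix factors, and Smad7 an inhibitory SMAD that restrains the pathway and hepcidin. Id1 (ENSMUSG00000042745, chromosome 2, 152736251 to 152737410) stood at 21.9, 12.2 and 6.33 CPM in Normoxia_PBS and at 6.96, 2.77 and 2.35 CPM in Hypoxia_PBS. The highest hypoxia library was above the lowest normoxia library. Id1 had a log2 fold change of -1.72 (SE 0.54, edgeR adjusted p = 0.0342), and the call was lost without Normoxia_PBS-1, Normoxia_PBS-2, Hypoxia_PBS-2 or Hypoxia_PBS-3, without the count filter and in a fit of the compared groups alone (range of adjusted p 0.0107 to 0.107). In the DEX groups Id1 stood at 4.93, 9.08 and 7.65 CPM in normoxia and at 9.35, 5.59 and 10.9 CPM in hypoxia, which overlapped (log2 fold change 0.27, edgeR adjusted p = 0.701). The DEX response was -0.90 in normoxia and 1.09 in hypoxia, and neither passed (edgeR adjusted p = 0.281 and 0.245). The interaction of 1.99 had an SE of 0.75 and did not pass either (edgeR adjusted p = 0.308).

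Smad7 (ENSMUSG00000025880, chromosome 18, 75367529 to 75395935) was lowest in the group that received both treatments. It stood at 14.0, 10.5 and 7.71 CPM in Normoxia_PBS, 4.76, 9.74 and 7.83 CPM in Normoxia_DEX, 7.83, 8.54 and 8.66 CPM in Hypoxia_PBS, and 4.38, 2.10 and 4.67 CPM in Hypoxia_DEX. Hypoxia_DEX did not overlap with any other group. DEX lowered Smad7 in hypoxia, with a log2 fold change of -1.12 (SE 0.32, edgeR adjusted p = 0.0404), and hypoxia lowered it under DEX by -0.97 (SE 0.32, edgeR adjusted p = 0.0287). Both calls were close to the threshold. The DEX call was lost in 12 of 19 alternatives, among them leaving out any library of the compared groups, and also Normoxia_DEX-3 or Normoxia_PBS-2 (adjusted p from 0.00423 to 0.141). The oxygen call was lost in 7, among them without Hypoxia_DEX-1, Hypoxia_DEX-2, Normoxia_DEX-2 or Normoxia_DEX-3, with Hypoxia_DEX-2 and Hypoxia_PBS-1 dropped together and without the count filter (range of adjusted p 0.00734 to 0.132). For the DEX comparison in hypoxia, Id1 stood at 8.62 ± 2.74 CPM against 4.03 ± 2.55 in Hypoxia_PBS, and Smad7 at 3.72 ± 1.41 against 8.35 ± 0.448 CPM (SD, n = 3), and the difference between these responses was not tested.

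The level of Hamp relative to these targets was formed in each library as log2 CPM of Hamp minus the mean of Id1 and Smad7. It was 6.29 ± 0.83 in Normoxia_PBS and 6.47 ± 0.03 in Normoxia_DEX, and 7.44 ± 0.15 in Hypoxia_PBS and 7.45 ± 0.52 in Hypoxia_DEX (SD, n = 3). The oxygen difference was 1.07 and the DEX difference 0.09, given as a description without a p. Against Id1 alone the DEX difference was -0.45 and against Smad7 alone 0.64, so the sign of the DEX difference depended on the target used. The size of the oxygen difference depended on it too. With Id1 alone it was 6.19 ± 1.06 in Normoxia_PBS and 8.04 ± 0.6 in Hypoxia_PBS, but 6.48 ± 0.0 in Normoxia_DEX and 6.84 ± 0.46 in Hypoxia_DEX. With Smad7 alone these groups had 6.39 ± 0.6 and 6.84 ± 0.3, but 6.45 ± 0.07 and 8.06 ± 0.58 (SD, n = 3).

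TFR2, the second transferrin receptor, is a sensor of iron-loaded transferrin on hepatocytes that supports hepcidin expression. Tfr2 (ENSMUSG00000029716, chromosome 5, 137569840 to 137587481) stood at 382, 344 and 358 CPM in Normoxia_PBS and 416, 418 and 452 CPM in Hypoxia_PBS. The groups did not overlap, and Tfr2 rose by 0.25 on the log2 scale, 1.19-fold (SE 0.08, edgeR adjusted p = 0.0255). The call was lost without Normoxia_PBS-2, Normoxia_PBS-3 or Hypoxia_PBS-3 and in a fit of the compared groups alone (range of adjusted p 0.00779 to 0.101). In the DEX groups it stood at 350.5 to 376 CPM in normoxia and at 364 to 416 CPM in hypoxia, which overlapped (log2 fold change 0.06, edgeR adjusted p = 0.551).

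TFR1, encoded by Tfrc, brings transferrin-bound iron into cells. Tfrc (ENSMUSG00000022797, chromosome 16, 32608920 to 32632794) stood at 26.0, 33.0 and 40.0 CPM in Normoxia_PBS, and every library of the other groups was above these values. The Normoxia_DEX libraries stood at 92.2, 65.8 and 65.8 CPM, the Hypoxia_PBS libraries at 53.1, 94.8 and 61.5 CPM, and the Hypoxia_DEX libraries at 69.1, 78.0 and 71.6 CPM. Tfrc rose 2.11-fold in hypoxia under PBS (log2 fold change 1.08, SE 0.23, edgeR adjusted p = 0.00507) and 2.26-fold after DEX in normoxia (log2 fold change 1.18, SE 0.23, edgeR adjusted p = 0.00559). Both calls held under all 19 alternatives, and they share the Normoxia_PBS libraries as their reference. With the other treatment already present the log2 fold changes were -0.03 for hypoxia (SE 0.23, edgeR adjusted p = 0.918) and 0.06 for DEX (SE 0.23, edgeR adjusted p = 0.894). The interaction was -1.11 (SE 0.32) and did not pass with edgeR (adjusted p = 0.154), while it passed with DESeq2 (adjusted p = 0.0166, and 0.0166 to 0.382 over all alternatives). Tfrc is also abundant in erythroid precursors. The summed level of 9 erythroid markers was 54.9 to 92.9 CPM in Normoxia_PBS, 78.0 to 99.3 in Normoxia_DEX, 97.8 to 111 in Hypoxia_PBS and 77.5 to 114 in Hypoxia_DEX. Of the 6 that were tested, 2 were higher and none lower in hypoxia under PBS (median 0.61). In hypoxia under DEX 1 was higher and 1 lower (median 0.27), and none passed after DEX at either oxygen level. The part of erythroid cells in the Tfrc result was not tested.

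Slc40a1 (ENSMUSG00000025993, chromosome 1, 45908068 to 45926523) encodes ferroportin, the receptor of hepcidin and the only known exporter of iron from mammalian cells. It stood at 120, 89.8 and 67.2 CPM in Normoxia_PBS, 140, 174 and 138 CPM in Normoxia_DEX, 174, 109 and 121 CPM in Hypoxia_PBS, and 160, 124 and 152 CPM in Hypoxia_DEX. The Normoxia_PBS group was the lowest, and it overlapped with Hypoxia_PBS. The DEX difference in normoxia had non-overlapping groups but did not pass (log2 fold change 0.71, SE 0.23, edgeR adjusted p = 0.0596). It did pass under some alternatives, among them with DESeq2, without Normoxia_PBS-1, without Hypoxia_PBS-1 and with Hypoxia_DEX-2 and Hypoxia_PBS-1 dropped together (adjusted p = 0.00932, 0.0166, 0.0365 and 0.0365, and 0.00932 to 0.199 over all alternatives). Hypoxia under PBS gave 0.55 (SE 0.23, edgeR adjusted p = 0.0853) and passed, among the alternatives, with DESeq2 and without Normoxia_PBS-1 (adjusted p = 0.0429 and 0.023, and 0.023 to 0.332 over all alternatives). Kupffer cells, which recycle iron from red cells, also express Slc40a1. Of 12 Kupffer cell markers, 11 were lower in hypoxia under PBS and 12 under DEX, with medians of -1.31 and -1.28, while the Slc40a1 values were 0.55 and -0.05. The part of these cells in the Slc40a1 values was not tested.

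Fth1 and Ftl1 encode the heavy and light chains of ferritin, the cage that stores iron. Fth1 (ENSMUSG00000024661, chromosome 19, 9980598 to 9985098) stood at 944, 976 and 1130 CPM in Normoxia_PBS and 1036, 1122 and 1128 CPM in Normoxia_DEX. It stood at 1502, 1564 and 1584 CPM in Hypoxia_PBS and 1568, 1718 and 1569 CPM in Hypoxia_DEX. Every hypoxia library was above every normoxia library. Fth1 rose 1.52-fold in hypoxia under PBS (log2 fold change 0.61, SE 0.08, edgeR adjusted p = 0.00014) and 1.48-fold under DEX (0.56, SE 0.08, edgeR adjusted p = 0.000165), and both calls held under all 19 alternatives. DEX gave 0.11 in normoxia and 0.06 in hypoxia, and neither passed (edgeR adjusted p = 0.445 and 0.686).

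The light chain did not follow. Ftl1 (ENSMUSG00000050708, chromosome 7, 45457944 to 45459884) averaged 1012 ± 30.8 CPM in Normoxia_PBS, 1064 ± 60.9 in Normoxia_DEX, 952 ± 116 in Hypoxia_PBS and 1039 ± 19.1 in Hypoxia_DEX (SD, n = 3). Its log2 fold change in hypoxia was -0.09 under PBS and -0.04 under DEX, and neither passed (SE 0.09 each, edgeR adjusted p = 0.466 and 0.771). The difference between the responses of Fth1 and Ftl1 was not tested. Of the 50-base stretches in Ftl1 transcripts, 58.4% also occur in 1 or more of 17 other genes, mainly the pseudogene Ftl1-ps1 (1.01 to 1.99 CPM), so its counts depend on how such reads were assigned, which is not given in the sources used here.

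Of the 10 genes, 4 carry a match to the iron-responsive element, the stem-loop through which cell iron acts on these mRNAs and which links the storage, export and uptake genes of the set. The search took C, 5 bases, the loop CAGTG and a base other than G, and then 5 bases able to pair with the former, and matched a UTR of 123 of 21901 protein-coding genes (0.562%). Capitals mark the 6 loop bases. Sites in the 5′ UTR belong to Fth1 (chr19:9982731-9982760, plus strand), Ftl1 (chr7:45459779-45459808, minus strand) and Slc40a1 (chr1:45925465-45925494, minus strand), and those in the 3′ UTR to Tfrc, which has 4 on the plus strand, of which the sites at chr16:32631218-32631247 and chr16:32631709-32631738 are shown (GENCODE release M21, GRCm38).
Fth1: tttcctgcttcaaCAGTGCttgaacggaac
Ftl1: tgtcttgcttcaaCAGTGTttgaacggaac
Slc40a1: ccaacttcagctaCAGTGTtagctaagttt
Tfrc, the first site shown: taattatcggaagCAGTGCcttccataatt
Tfrc, the second site shown: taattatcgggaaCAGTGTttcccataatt
The mRNA levels of these 4 genes did not move alike: under PBS, hypoxia gave log2 fold changes of 1.08 for Tfrc, 0.61 for Fth1, 0.55 for Slc40a1 and -0.09 for Ftl1, of which Tfrc and Fth1 passed. Counts of mRNA do not show translation, which these elements control in Fth1, Ftl1 and Slc40a1.

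Among the 30 other genes of the BMP-SMAD pathway, 3 were higher and 9 lower in hypoxia under PBS (median -0.21), and 3 and 8 under DEX (median -0.06). The shares of all tested genes that passed were 35.7% and 42.9%. Neither these counts nor those of the lists below are read as particular to a list. The lower genes included Tmprss6, which encodes matriptase-2, the protease that cleaves the hepcidin co-receptor hemojuvelin and so restrains hepcidin. Tmprss6 stood at 458, 426 and 467 CPM in Normoxia_PBS and at 285, 334 and 291 CPM in Hypoxia_PBS. These groups did not overlap (log2 fold change -0.57, SE 0.08, edgeR adjusted p = 0.000195), nor did the DEX groups (-0.76, SE 0.08, edgeR adjusted p = 1.42e-05). Hfe, the hemochromatosis gene, was lower in hypoxia under DEX (-0.53, SE 0.09, edgeR adjusted p = 0.000524), while under PBS its change was -0.10 (edgeR adjusted p = 0.414). The endothelial BMP receptor genes Acvrl1 and Eng were lower in hypoxia under PBS (-0.91 and -0.34, edgeR adjusted p = 0.0147 and 0.00336). Acvr2b, a type II receptor gene, was lower too (-0.66, edgeR adjusted p = 0.00564). Acvr1, a type I receptor gene, was higher (0.48, edgeR adjusted p = 0.0297), a call lost without Hypoxia_PBS-2, Hypoxia_PBS-3 or any Normoxia_PBS library and in a fit of the compared groups alone (range of adjusted p 0.000184 to 0.125). Smad9, which encodes the BMP effector SMAD8, was higher in hypoxia under DEX (2.61, SE 0.52, edgeR adjusted p = 0.00324). Eng and Acvrl1 moved with the endothelial markers given above, and the part of cell content was not tested. Hjv, the hemojuvelin gene, had 0.46 and -0.08 in the oxygen comparisons and did not pass (edgeR adjusted p = 0.249 and 0.847).

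After DEX, 6 of these 30 genes were higher and 7 lower in normoxia (median -0.06), and 4 and 8 in hypoxia (median -0.12). The shares of all tested genes that passed were 16.8% and 13.2%. Id3 and Id2, BMP targets like Id1, were among the genes that fell at both oxygen levels. Id3 averaged 141 ± 27.7 CPM in Normoxia_PBS and 22.6 ± 4.09 in Normoxia_DEX, and 111 ± 23.0 CPM in Hypoxia_PBS and 37.1 ± 1.91 in Hypoxia_DEX (SD, n = 3). No DEX library reached a PBS library, and its log2 fold changes were -2.64 in normoxia and -1.58 in hypoxia (edgeR adjusted p = 4.33e-06 and 0.000306). Those of Id2 were -2.12 and -0.90 (edgeR adjusted p = 2.87e-06 and 0.00269). Its interaction of 1.22 (SE 0.22) was the single interaction call in the list (edgeR adjusted p = 0.0223, lost without Hypoxia_DEX-3, Normoxia_DEX-2 or Normoxia_PBS-2 and with Hypoxia_DEX-2 and Hypoxia_PBS-1 dropped together, and 3.84e-05 to 0.0717 over all alternatives). Bmp2, another endothelial ligand of the hepcidin pathway, fell after DEX by 0.88 in normoxia (SE 0.16, edgeR adjusted p = 0.0021). Bambi, a decoy receptor, rose by 1.82 in normoxia (SE 0.30, edgeR adjusted p = 0.000725), and its highest group mean was 5.26 CPM. Smad6, an inhibitory SMAD gene like Smad7, fell after DEX in hypoxia (-0.95, SE 0.19, edgeR adjusted p = 0.00556), and its change of -0.50 in normoxia did not pass (edgeR adjusted p = 0.0947). Acvr2b fell at both oxygen levels (-0.97 and -0.73, edgeR adjusted p = 0.000716 and 0.0131), and the hypoxia call was lost without Hypoxia_DEX-1 or Hypoxia_PBS-2 (range of adjusted p 0.00812 to 0.0543). Atoh8, a BMP target gene, fell in normoxia (-0.94, edgeR adjusted p = 0.0241), a call lost without any 1 Normoxia_DEX library, without Normoxia_PBS-1 and without the count filter (range of adjusted p 0.00208 to 0.0888).

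**Figure D4:**
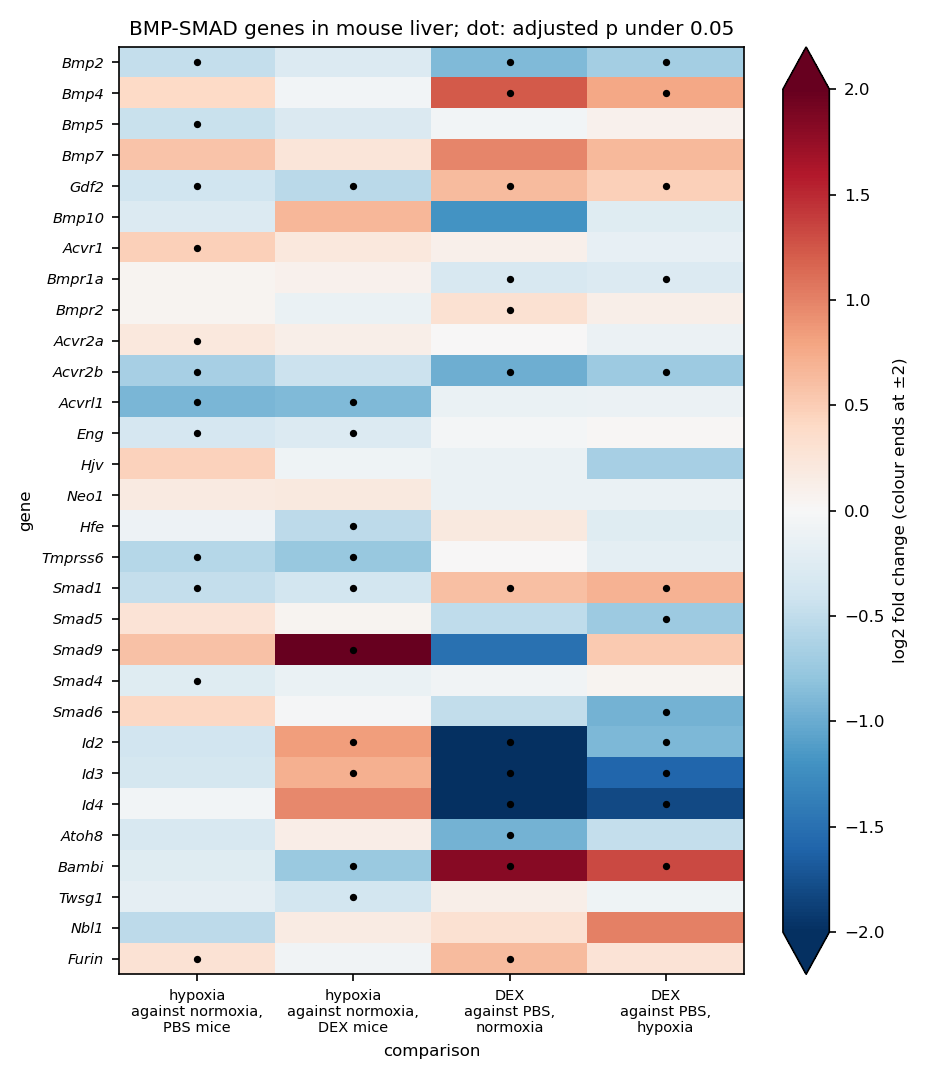
Log2 fold change (colour) of 30 BMP-SMAD genes (y axis) in 4 comparisons (x axis); black dots mark an adjusted p under 0.05 by edgeR, and the colour scale ends at ±2. Id2, Id3 and Id4 are dark blue after DEX in normoxia (-2.12, -2.64 and -2.81), and Tmprss6 is blue in both oxygen comparisons (-0.57 and -0.76) and near white for DEX.

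Of 13 genes of the interleukin 6 and STAT3 arm, 3 were higher and none lower in hypoxia under PBS and again under DEX (medians 0.09 and -0.01). Over all tested genes 35.7% and 42.9% passed. The 3 higher genes were Socs3, a feedback inhibitor and STAT3 target, Il22ra1, an interleukin 22 receptor chain, and Creb3l3, a liver transcription factor that can act on the hepcidin gene. The Creb3l3 call under PBS was lost without Hypoxia_DEX-1, Hypoxia_PBS-1, Hypoxia_PBS-3, Normoxia_DEX-2, Normoxia_PBS-2 or Normoxia_PBS-3 and in 4 other alternatives, 10 of 19 in all (adjusted p = 0.0319, and 0.00123 to 0.168 over all alternatives). Socs3 averaged 119 ± 29.6 CPM in Normoxia_PBS, 29.6 ± 1.63 in Normoxia_DEX, 215 ± 54.2 in Hypoxia_PBS and 154 ± 25.2 in Hypoxia_DEX (SD, n = 3). It was higher in hypoxia by 0.85 under PBS and 2.38 under DEX (edgeR adjusted p = 0.0105 and 1.97e-05). After DEX it fell by 2.00 in normoxia (edgeR adjusted p = 0.000113), while the change of -0.47 in hypoxia did not pass (edgeR adjusted p = 0.182). The Socs3 interaction was 1.53 (edgeR adjusted p = 0.0394), and this call was lost in 12 of the alternatives, 9 of them leaving out a single library (any library but Hypoxia_DEX-2, Hypoxia_PBS-1 or Normoxia_PBS-1), with adjusted p from 4.08e-05 to 0.119. Of the same 13 genes, 1 was higher and 4 lower after DEX at each oxygen level (medians -0.27 and -0.47). Over all tested genes 16.8% passed in normoxia and 13.2% in hypoxia. Il6ra, the interleukin 6 receptor gene, rose by 1.28 in normoxia and 0.96 in hypoxia (edgeR adjusted p = 9.91e-06 and 0.000232), and Il1b, the interleukin 1 beta gene, fell at both levels (-4.01 and -2.73, edgeR adjusted p = 0.000418 and 0.00424). Il1b is a myeloid gene, and the part of the neutrophil markers, of which 2 of 5 tested fell after DEX at each oxygen level, was not tested. Stat3 itself ranged from -0.27 to 0.24 over these 4 comparisons and did not pass, with edgeR adjusted p between 0.163 and 0.558.

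The erythroid and hypoxia signals to hepcidin come largely from other tissues. Epo, the erythropoietin gene, had no counts, and Erfe, which encodes the erythroid hormone erythroferrone, had 3 counts over all libraries, so 8 of the 10 listed genes were tested. Of these, 1 was higher and 2 lower in hypoxia under PBS, 2 higher and 1 lower in hypoxia under DEX, none passed for DEX in normoxia (3 did at an unadjusted p under 0.05), and 1 was higher and 1 lower for DEX in hypoxia. The medians were -0.54, 0.17, -0.31 and 0.11, and the shares of all tested genes that passed were 35.7%, 42.9%, 16.8% and 13.2%. Epas1, which encodes HIF-2 alpha, stood at 268, 224 and 243 CPM in Normoxia_PBS and at 172, 172 and 153 CPM in Hypoxia_PBS. It was lower in hypoxia (log2 fold change -0.56, SE 0.08, edgeR adjusted p = 0.000191) and rose after DEX in hypoxia (0.43, SE 0.08, edgeR adjusted p = 0.00326). Hif1a, the HIF-1 alpha gene, was higher in hypoxia under DEX (0.42, edgeR adjusted p = 0.00636). Fgl1, which encodes a liver-secreted protein, was higher in hypoxia under PBS and DEX (0.33 and 0.31, edgeR adjusted p = 0.032 and 0.0341), and Egfr, a growth factor receptor gene, was lower under PBS (-1.11, edgeR adjusted p = 0.0426). These calls were close to the threshold, with adjusted p reaching 0.111, 0.0969 and 0.164 over the alternatives, and each was lost without several single libraries. Gdf15, a stress cytokine gene, did not pass in any of the 4 comparisons (-1.55 to 0.95, edgeR adjusted p from 0.071 to 0.949).

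Among genes of iron uptake, export and plasma carriers, 14 of 16 listed were tested. In hypoxia 1 was higher and 2 lower under PBS, and 2 higher and 3 lower under DEX. After DEX 3 were higher and none lower in normoxia, and 1 higher and 3 lower in hypoxia. The medians were 0.09, 0.16, -0.02 and 0.03, and the shares of all tested genes that passed were 35.7%, 42.9%, 16.8% and 13.2%. Slc39a14, which encodes ZIP14, the hepatocyte importer of iron not bound to transferrin, averaged 614 ± 28.4 CPM in Normoxia_PBS, 848 ± 12.4 in Normoxia_DEX, 683 ± 124 in Hypoxia_PBS and 1314 ± 69.2 in Hypoxia_DEX (SD, n = 3). It rose after DEX by 0.47 in normoxia and by 0.94 in hypoxia (edgeR adjusted p = 0.00983 and 0.000125), and the difference of 0.48 between these did not pass (edgeR adjusted p = 0.186). The related importer gene Slc39a8 was lower in hypoxia, at -0.60 under PBS and -0.88 under DEX (edgeR adjusted p = 0.000447 and 1.77e-05). Tf, the transferrin gene, was lower in hypoxia under DEX (-0.60, edgeR adjusted p = 0.00142) and had -0.08 under PBS (edgeR adjusted p = 0.642). Lcn2, which encodes a siderophore-binding acute phase protein, averaged 185 ± 107 CPM in Normoxia_PBS and 748 ± 10.1 in Normoxia_DEX (SD, n = 3), a rise of 2.02 (SE 0.41, edgeR adjusted p = 0.00934). Steap3, an endosomal iron reductase gene, fell after DEX in hypoxia (-0.61, edgeR adjusted p = 0.0161), a call lost without Hypoxia_DEX-1, Hypoxia_DEX-3, Hypoxia_PBS-2 or Hypoxia_PBS-3, with the close pair summed and in a fit of the compared groups alone (range of adjusted p 0.000867 to 0.0719). Cp, the gene of the ferroxidase ceruloplasmin, and Slc11a2, the importer gene of DMT1, did not pass in the 4 comparisons (-0.44 to 0.19 and -0.30 to 0.36, edgeR adjusted p from 0.0753 to 0.887 and from 0.393 to 0.945).

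Of 11 tested genes of cellular iron sensing and ferritin turnover, 3 were higher and 2 lower in hypoxia under PBS and again under DEX (medians 0.09 and 0.10). Over all tested genes 35.7% and 42.9% passed. Ncoa4, the receptor that delivers ferritin for breakdown, averaged 35.4 ± 1.84 CPM in Normoxia_PBS and 49.0 ± 6.76 in Hypoxia_PBS (SD, n = 3), a rise of 0.47 (SE 0.11, edgeR adjusted p = 0.00399), and rose by 0.55 under DEX (SE 0.11, edgeR adjusted p = 0.000984). The iron-sulphur cluster genes Iscu and Bola2 rose under PBS by 0.44 and 0.56 (edgeR adjusted p = 0.000228 and 0.00546). Fbxl5, which encodes the iron- and oxygen-sensing ubiquitin ligase subunit for iron regulatory protein 2, stood at 29.9, 31.7 and 30.8 CPM in Normoxia_PBS and 20.4, 22.8 and 21.0 CPM in Hypoxia_PBS. It was lower without overlap (log2 fold change -0.53, SE 0.07, edgeR adjusted p = 0.000138), and under DEX by -0.78 (SE 0.07, edgeR adjusted p = 4.54e-06). Ireb2, the gene of iron regulatory protein 2, averaged 125 ± 10.0 CPM in Normoxia_PBS and 94.4 ± 2.67 in Normoxia_DEX, 94.8 ± 8.38 in Hypoxia_PBS and 101 ± 2.53 in Hypoxia_DEX (SD, n = 3). It was lower in hypoxia under PBS and after DEX in normoxia (-0.40 and -0.41, edgeR adjusted p = 0.00164 and 0.00256). After DEX 2 of the 11 were higher and 1 lower in normoxia (median 0.08), where 16.8% of all tested genes passed. The higher genes were Herc2, a ubiquitin ligase gene (0.49, SE 0.08, edgeR adjusted p = 0.000776), and Aco1, the gene of iron regulatory protein 1 (0.28, edgeR adjusted p = 0.0398). The Aco1 call did not hold when leaving out Hypoxia_DEX-1, Hypoxia_DEX-3, Normoxia_PBS-1, Normoxia_PBS-2 or any Normoxia_DEX library and with the close pair summed (range of adjusted p 0.0168 to 0.143). In hypoxia none passed after DEX (1 at an unadjusted p under 0.05, median 0.09), against 13.2% of all tested genes.

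Of 11 genes of heme scavenging, transport and breakdown, 2 were higher and 1 lower in hypoxia under PBS, and 4 were lower and none higher under DEX (medians 0.11 and -0.16). After DEX 4 were higher and 1 lower in normoxia, and 2 higher and 2 lower in hypoxia (medians 0.26 and 0.04). The shares of all tested genes that passed were 35.7% and 42.9% for hypoxia, and 16.8% and 13.2% for DEX. Hp, the gene of the hemoglobin scavenger haptoglobin, averaged 3605 ± 573 CPM in Normoxia_PBS and 5642 ± 109 in Normoxia_DEX (SD, n = 3), a rise of 0.65 (SE 0.12, edgeR adjusted p = 0.00241). Flvcr2, a transporter gene of the heme list, rose by 2.13 after DEX in normoxia (SE 0.23, edgeR adjusted p = 4.89e-05). Cd163, the macrophage hemoglobin receptor gene, was lower in hypoxia under DEX by -1.02 (SE 0.25, edgeR adjusted p = 0.00765). It is itself among the Kupffer cell markers that were lower there. Lrp1, a receptor gene for heme bound to hemopexin, was lower in hypoxia under PBS and DEX (-0.48 and -0.65, edgeR adjusted p = 0.0061 and 0.000688), and Hmox2, the constitutive heme oxygenase gene, rose after DEX in normoxia (0.36, edgeR adjusted p = 0.00424). Hmox1, the inducible heme oxygenase gene, averaged 129 ± 68.1 CPM in Normoxia_PBS and 49.6 ± 4.66 in Normoxia_DEX, and 226 ± 69.0 in Hypoxia_PBS and 87.5 ± 22.7 in Hypoxia_DEX (SD, n = 3). Its falls after DEX, at -1.38 and -1.37, passed narrowly (SE 0.39 each, edgeR adjusted p = 0.0401 and 0.0485), and each call was lost in 12 of 19 alternatives, including most single libraries left out (adjusted p reaching 0.121 and 0.159). Blvrb, a biliverdin reductase gene, was lower after DEX in hypoxia (-0.27, edgeR adjusted p = 0.0429), a call lost in 16 of 19 alternatives (adjusted p reaching 0.219). Hpx, the hemopexin gene, did not pass in the 4 comparisons (-0.22 to 0.26, edgeR adjusted p from 0.218 to 0.991).

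Across the 12 libraries and 8899 genes with enough reads, the patterns most like that of Hamp, by Pearson's r of log2 CPM, were those of Fn3krp (0.914), Cyp2a22 (0.885) and Dbp (0.871). Those most like Tfrc were Cd93 (0.965), Smpd2 (0.946) and Slc45a3 (0.928), and those most like Slc40a1 were Pcsk7 (0.901), Bfar (0.896) and Chmp1b (0.882). For Bmp6 they were Fitm2 (0.971), Zfp777 (0.968) and Oplah (0.953). These values describe libraries that fall into 4 treatment groups and are no test.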

How the data were processed

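The authors' deposited table held whole-number read counts per gene for all 12 libraries, with no normalization. The submitters' processing notes name the mm10 build, featureCounts, HISAT2 2.0.4, Trimmomatic, SAMtools and DESeq2. Annotation, strand setting and the handling of reads matching several genes are not given in these sources. Per the labels' protocols, a Bio-Rad column kit gave the RNA and an Illumina stranded mRNA kit the libraries. A sentence there names hypoxia for each oxygen arm, and the titles, which name normoxia for 1 arm, were followed. Whether replicates share a cage or day is not stated, so p-values measure only the spread between these libraries.

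The model was edgeR 4.0.16 in R 4.3.3: filterByExpr, TMM scaling, 1 mean per group over all 12 libraries, glmQLFit with robust estimation and glmQLFTest (8 residual degrees of freedom). P-values were adjusted by Benjamini-Hochberg over the 13861 tested genes, with a threshold of 0.05. Log2 CPM used a prior count of 2. The fit was tested on simulated data. Names and positions came from GENCODE release M21, which matched 54809 of 54838 identifiers. Promoters came from RefSeq (GRCm38.p6), with an entry for 7 of the 10 genes. Levels per kilobase used each gene's reference transcript, the first in GENCODE. Tests of the Hamp score were run, but its p is not printed. The Hamp2 share also combines genes of the set, and its p is printed.

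The 10 genes, the gene and marker lists, the alternatives and the naming rule were chosen with earlier results of these data known. Members are all named. Other genes are named if they were in a fixed set or had the largest changes of a list in a comparison (up to 3 among called genes of at least 5 CPM), and 3 genes per likeness. Genes shown only to complete a list's account (Acvrl1, Eng, Iscu, Id4) were chosen after their values were seen. Alternatives were DESeq2 1.42.0, RLE size factors, a fit of the compared groups alone, a block for replicate number, no count filter, each library left out, Hypoxia_DEX-1 and Hypoxia_DEX-3 summed, and Hypoxia_DEX-2 and Hypoxia_PBS-1 both left out. Figures were drawn with matplotlib 3.10.9.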

Additional observations from a re-analysis of the deposited data

Results flagged for a closer look

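In 3 genes of the lists the DEX response differed between oxygen levels by the test of the interaction itself, which 1.32% of all tested genes passed. The log2 interaction was 1.22 for Id2, 1.53 for Socs3 and 0.50 for Ireb2 (edgeR adjusted p = 0.0223, 0.0394 and 0.0455). The Ireb2 call was lost in 9 alternatives, 8 of them leaving out a single library (any but Normoxia_PBS-1, Hypoxia_DEX-2 and the first and second of Hypoxia_PBS), with adjusted p between 0.00326 and 0.108. The Ireb2 oxygen response also had opposite directions: Hypoxia_PBS lay wholly below Normoxia_PBS, and Hypoxia_DEX wholly above Normoxia_DEX. This is the same interaction of 0.50 seen from the other factor. The fall under PBS passed, while the difference under DEX did not. For Fbxl5 the DEX libraries lay wholly above the PBS libraries in normoxia and wholly below them in hypoxia. The Fbxl5 interaction of -0.26 did not pass (edgeR adjusted p = 0.313), nor did the DEX response at either oxygen level (edgeR adjusted p = 0.350 and 0.222).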

How the results depend on the processing

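The Hamp2 falls and Fth1 rises in hypoxia, the Tfrc rises and the Bmp6 rise under DEX kept direction and call under all alternatives run. Of the 10 genes, 5 were called for hypoxia under PBS, 3 with only the compared groups and 6 with DESeq2 or the replicate block (3 to 5 with 1 library left out). For DEX in normoxia, 1 was called, and 2 with DESeq2, with the replicate block or with Hypoxia_DEX-2 and Hypoxia_PBS-1 dropped together (1 to 2 with 1 library left out). For DEX in hypoxia, 1 was called, but 0 without the filter, with the block or with the close pair summed, and 2 with only the compared groups or without both libraries (0 to 2). The interaction had 0, and 1 with DESeq2 (0 with any 1 library left out). Hypoxia under DEX had 5, and 3 without the filter (3 to 5). The DEX difference in the Hamp2 share, 4.39 points, passed with the replicate block (adjusted p = 0.0417) and ran from 3.10 to 5.70 with 1 library left out. The DEX difference in the Hamp score was 0.09, -0.45 with Id1 alone and 0.64 with Smad7 alone (-0.10 to 0.31 with 1 library left out). Causes of these shifts were not tested.

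Sign changes numbered 28, none past the threshold under either setting. Without both libraries, Hamp gave -0.01 for hypoxia under PBS and 0.17 for DEX in hypoxia, Tfrc -0.12 for DEX in hypoxia, Slc40a1 0.08 and Ftl1 0.00 for hypoxia under DEX. With the pair summed, Tfrc gave 0.01 for hypoxia under DEX and Fth1 0.01 for the interaction. With 1 library left out, Hamp ran from -0.01 to 0.25 for hypoxia under PBS and from -0.09 to 0.15 for DEX in hypoxia, and Tfrc from -0.08 to 0.36 for DEX in hypoxia and from -0.10 to 0.15 for hypoxia under DEX. Slc40a1 ran from -0.01 to 0.37 and from -0.11 to 0.08 in the same comparisons, Hamp2 from -0.47 to 0.03 and Tfr2 from -0.02 to 0.06 for DEX in normoxia, Fth1 from -0.13 to 0.01 for the interaction, and Ftl1 from -0.07 to 0.03 for hypoxia under DEX.

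Replicate numbers did not pair the libraries throughout: 4 of 18 same-number pairs correlated above 0.1 (-0.15 to 0.39), and 7 of 12 libraries correlated best with their own number. The pairs above 0.1 were Hypoxia_DEX-1 with Hypoxia_PBS-1 (0.30) and with Normoxia_PBS-1 (0.20), Hypoxia_PBS-1 with Normoxia_PBS-1 (0.33), and Hypoxia_DEX-2 with Hypoxia_PBS-2 (0.39). Whether some libraries of the same number share a batch was not tested. With the number as a block, Slc40a1 passed for DEX in normoxia and for hypoxia under PBS (adjusted p = 0.0263 and 0.0498), and Smad7 lost its calls for DEX in hypoxia and for hypoxia under DEX (adjusted p = 0.0814 and 0.0608). Over all genes, 1827 were called for DEX in hypoxia, and 1180 with only the compared groups, 1160 with the pair summed and 1072 to 2466 with 1 library left out. For the interaction 183 were called, and 369 with DESeq2, 70 with the pair summed, 475 without both libraries and 63 to 306 with 1 library left out. Depth limits Id1, Smad7 and Bmp6 most.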
